A study of Mus musculus with 37 samples.

Results

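Genes of the proteasome family were described across 9 groups of mouse hearts. The members were genes of the deposited table whose symbol has the form Psma to Psmg followed by a number. Their mean was at least 1 FPKM (fragments per kilobase of gene length, on a common scale across libraries) over all 37 libraries. Of 49 genes with such a symbol, 47 were members, out of 56748 genes in the table. Psma8 and Psmb11, subunits known from testis and thymus, were left out with means of 0.237 and 0.0029 FPKM. All 47 members were among the 16530 genes that passed the filter on low values and were tested.

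The libraries were bulk RNA of left ventricle, with the apex discarded, from male and female C57BL/6J mice 8 to 10 weeks old. Naive mice received isoflurane anaesthesia only, and they were the shared control of every comparison with time (n = 5 libraries). Adr mice, which the sample labels call sham, were anaesthetised, intubated and ventilated, were given saline into the left ventricle and then adrenaline. Arrest mice went through the same steps with potassium chloride in place of saline, had 8 min of asystole, and were resuscitated with adrenaline and chest compressions. Adr and Arrest hearts were taken 0.5, 1, 3 or 7 d later (n = 4 libraries per group), and every group shared the isoflurane. Naive hearts were taken after the baseline echocardiography, while Adr and Arrest mice recovered and had it repeated. Any difference from Naive therefore carries the intubation, the ventilation, the injection, the adrenaline, the recovery and the repeat echocardiography. In Arrest mice it also carries the potassium chloride, the asystole and the chest compressions. The libraries held 13.2 to 30.2 M fragments counted on genes, and the members were covered by 5 to 8473 fragments per library, the fewest on Psmg3. All 8 cardiomyocyte markers were present, with a summed level of 8750 to 18600 FPKM in the groups other than Adr 3 d. The lowest sum, 3790 FPKM, was in Adr 3 d replicate 3, which took 9.36% of its fragments from mitochondrial genes against 26.0% to 28.1% in the other 3 of its group, and the 9 monocyte and macrophage markers had their highest sum there (2280 FPKM). The study left out 1 Adr library of 3 d for poor quality and does not say which, and all 4 were analysed here. The labels do not tie libraries to litters or batches, so p-values measure the spread between these samples. In bulk tissue, fewer cells of a type and less RNA per cell cannot be told apart.

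The proteasome is the protease that degrades proteins tagged with ubiquitin. Its core particle is a stack of rings of alpha subunits (Psma genes), which gate the entry, and of beta subunits (Psmb genes), of which Psmb5, Psmb6 and Psmb7 carry the catalytic sites. A cap, with a base of ATPases (Psmc genes) and a lid, binds, deubiquitinates and unfolds the substrate. Interferon is known to replace the catalytic subunits by Psmb8, Psmb9 and Psmb10 and to raise the activator Psme1 and Psme2, which gives the immunoproteasome, a source of peptides for MHC class I. In heart muscle the proteasome turns over contractile and damaged proteins, and assembly chaperones (Psmg genes, Psmd5, Psmd9 and Psmd10) join the rings and the base.

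Transcripts of 12 of the 14 constitutive core genes rose at 1 d after arrest (3.88% of all tested genes rose). Of the 5 immunoproteasome genes none rose, which is close to that share, and Psmb9 fell (3.24% of all tested genes fell). The Psmb9 call was lost in 7 of 10 fits that left out 1 library. Whether these 5 genes differed from the core was not tested. Promoters of both kinds are shown, as the 150 bases before the start of 7 of those core genes, then of Psmb8 and Psmb9. They run 5′ to 3′ on the gene's strand, with motif matches in capitals (RefSeq, GRCm38.p6, the first listed start where there are more). They were chosen with the values and matches in view. Psma5 and Psmb4 are shown as called core genes without a match.
Psma1, chr7:114276117-114276266, minus strand: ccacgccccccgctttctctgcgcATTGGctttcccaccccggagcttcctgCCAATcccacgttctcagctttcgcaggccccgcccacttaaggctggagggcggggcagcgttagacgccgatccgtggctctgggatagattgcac
Psma5, chr3:108256776-108256925, plus strand: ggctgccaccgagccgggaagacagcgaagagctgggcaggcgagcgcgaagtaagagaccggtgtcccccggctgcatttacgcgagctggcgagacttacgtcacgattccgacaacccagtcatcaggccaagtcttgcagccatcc
Psma6, chr12:55384072-55384221, plus strand: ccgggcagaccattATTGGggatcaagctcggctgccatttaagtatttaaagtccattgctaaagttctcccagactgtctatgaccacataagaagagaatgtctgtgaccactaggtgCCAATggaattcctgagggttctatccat
Psmb3, chr11:97703284-97703433, plus strand: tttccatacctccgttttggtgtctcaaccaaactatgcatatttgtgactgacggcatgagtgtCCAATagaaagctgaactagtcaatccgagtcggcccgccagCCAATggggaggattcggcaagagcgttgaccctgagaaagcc
Psmb4, chr3:94886959-94887108, minus strand: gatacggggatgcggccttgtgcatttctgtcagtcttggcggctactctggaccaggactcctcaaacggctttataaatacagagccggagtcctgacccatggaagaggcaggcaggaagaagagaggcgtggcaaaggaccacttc
Psmb5, chr14:54617996-54618145, minus strand: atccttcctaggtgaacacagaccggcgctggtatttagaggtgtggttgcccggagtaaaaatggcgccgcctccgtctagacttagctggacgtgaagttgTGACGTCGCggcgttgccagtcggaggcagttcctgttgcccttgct
Psmb6, chr11:70525207-70525356, plus strand: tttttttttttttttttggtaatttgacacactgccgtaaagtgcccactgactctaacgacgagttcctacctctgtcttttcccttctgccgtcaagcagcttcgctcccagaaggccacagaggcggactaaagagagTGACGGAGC
Psmb8, chr17:34198045-34198194, plus strand: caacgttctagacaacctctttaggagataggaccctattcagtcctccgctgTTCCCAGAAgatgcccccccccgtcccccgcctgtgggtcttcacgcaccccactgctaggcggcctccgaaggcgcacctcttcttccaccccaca
Psmb9, chr17:34187331-34187480, minus strand: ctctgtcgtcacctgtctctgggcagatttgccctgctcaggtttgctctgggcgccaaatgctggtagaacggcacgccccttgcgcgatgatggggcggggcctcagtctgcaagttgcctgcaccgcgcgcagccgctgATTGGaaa
The capitals mark CCAAT boxes (CCAAT, or ATTGG on the other strand) in Psma1, Psma6, Psmb3 and Psmb9, the core of the antioxidant response element (TGACNNNGC), which factors of the NRF1 and NRF2 kind bind, in Psmb5 and Psmb6, and a gamma-activated site (TTCNNNGAA), which STAT proteins bind, in Psmb8. Psma1, Psma6 and Psmb3 each had a pair of CCAAT boxes in these bases, at -126 and -98, -136 and -29, and -85 and -43 from the start. The response element core began at -47 in Psmb5 and at -9 in Psmb6, directly before the start.

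The same letters were counted on both strands in windows of 250 bases before to 50 after the start. Such windows were found for 40 of the 47 members and for 27025 genes in all. A CCAAT box was in 5 of 7 alpha ring genes (71.4%), in 13 of the 40 members (32.5%) and in 41.1% of all genes. The antioxidant response element core was in 6 of the 40 members (15%: Psmb5, Psmb6, Psmc6, Psmd9, Psmd12 and Psme4) and in 14% of all genes, so both shares were close. The interferon-stimulated response element (GAAA, any pair of bases, GAAA) was in 5 members (12.5%) against 3.99% of all genes, and only Psme1 of these is an immunoproteasome gene. The gamma-activated site was in 3 members (7.5%) against 9.55%. These matches are descriptions of letters in a window, and no match does not say that a factor does not act there.

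At 1 d after arrest, 18 of the 47 members were higher than in Naive hearts and 1, Psmb9, was lower, in a limma fit over all genes with Benjamini-Hochberg adjustment (adjusted p at or under 0.05). The background was 3.88% of all tested genes higher and 3.24% lower. The 18 were 5 of 7 alpha ring genes, all 7 constitutive beta ring genes, 3 of 9 genes of the cap base and 3 of 8 of the lid. None of the 5 immunoproteasome genes, the 4 other regulators or the 7 assembly genes was among them. The median change of the members was 0.34 on the log2(FPKM + 1) scale, and that of all tested genes was 0.03. By class, the median was 0.62 for the 14 constitutive core genes, 0.34 for the 17 cap genes, 0.22 for the assembly genes and 0.02 for the immunoproteasome genes. Every Arrest 1 d library was above every Naive library for 20 members, against a background of 5.71% of all genes, and below for 1 member, against 4.8%.

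**Figure D1:**
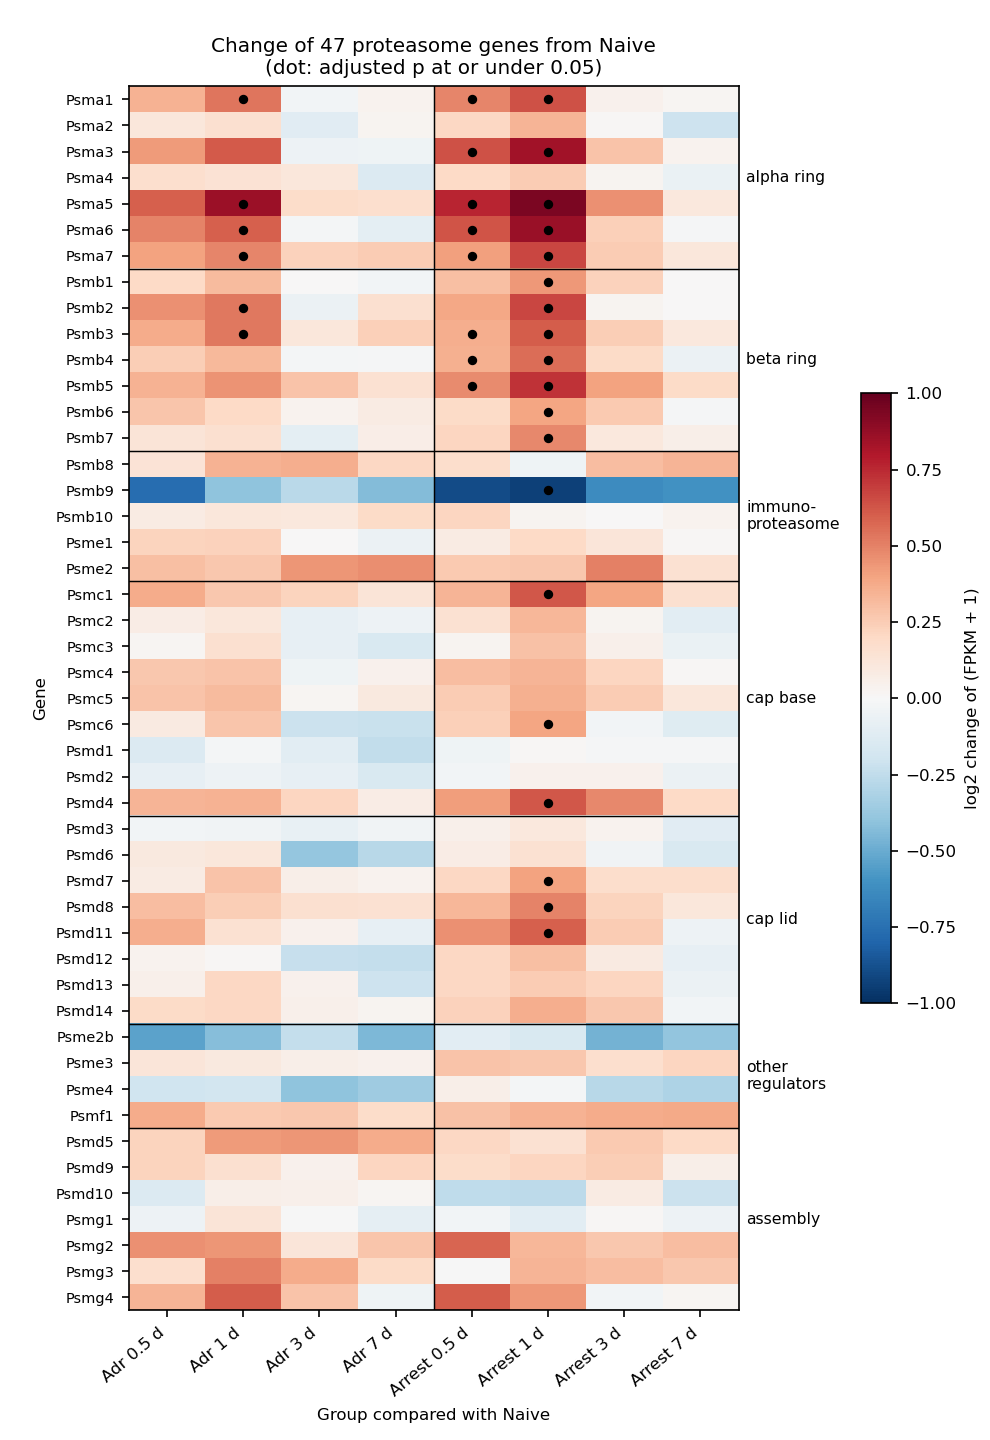
Change of the 47 members (rows, by role) in each Adr and Arrest group (columns) from Naive, as the difference of mean log2(FPKM + 1), with a dot where the adjusted p was at or under 0.05. Red is concentrated in the alpha and beta rings at 0.5 and 1 d, with 19 dots in Arrest 1 d, 8 in Arrest 0.5 d, 6 in Adr 1 d and none in the other 5 columns.

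Psma6, a subunit of the alpha ring and the most abundant member per length, gave the smallest p. Its level was 66.4, 62.0, 81.5, 69.8 and 76.9 FPKM in the 5 Naive libraries and 142, 121, 158 and 106 FPKM in the 4 Arrest 1 d libraries. The groups did not overlap, and the lowest Arrest library stood above the highest Naive library. The mean level was 131 ± 22.9 FPKM (SD, n = 4) against 71.3 ± 7.86 FPKM (SD, n = 5), a log2 change of 0.86 (SE 0.14, limma adjusted p = 0.000389).

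Psma6 was also above Naive in the other early groups. Its level was 116, 119, 106 and 103 FPKM at 0.5 d after arrest, 98.8, 86.2, 112 and 108 FPKM at 0.5 d after adrenaline alone and 110, 83.2, 108 and 136 FPKM at 1 d after adrenaline alone. All 12 of these libraries were above the 5 Naive ones. The group means then fell to 84.1 ± 3.07 FPKM at Arrest 3 d, 71.1 ± 10.3 FPKM at Arrest 7 d, 70.7 ± 9.87 FPKM at Adr 3 d and 67 ± 11.1 FPKM at Adr 7 d (SD, n = 4 each). In the order of the levels, Arrest 1 d led Arrest 0.5 d, Adr 1 d and Adr 0.5 d, with ranges that overlapped between neighbours, and Arrest 7 d, Naive, Adr 3 d and Adr 7 d lay within 1 SD of one another.

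The other alpha ring genes followed at different sizes. Psma1 was at 38.7, 28.7, 32.5, 27.5 and 33.2 FPKM in Naive and at 51.3, 46.9, 50.8 and 52.1 FPKM in Arrest 1 d, with no overlap (log2 change 0.64, SE 0.11, limma adjusted p = 0.000872). Psma7 rose by 0.67 on the log2 scale (SE 0.12, limma adjusted p = 0.001). Psma3, whose tail takes part in the gate of the ring, rose by 0.84 (SE 0.16, limma adjusted p = 0.00184). Psma5 had the largest change of the family, 0.94 (SE 0.21, limma adjusted p = 0.00639), but its Naive levels were scattered, at 25.8, 32.5, 30.4, 10.7 and 41.2 FPKM, so the lowest Arrest 1 d library (40.7 FPKM) was below the highest Naive one. The low value of 10.7 FPKM was in Naive replicate 4, the library with the fewest genes above 0 (13475). Psma2 (log2 change 0.34, limma adjusted p = 0.0629) and Psma4 (0.26, adjusted p = 0.219) did not pass the threshold.

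In the beta ring all 7 constitutive genes passed. Psmb4, a structural subunit, was at 60.7, 66.7, 63.2, 65.1 and 55.2 FPKM in Naive and at 86.4, 93.8, 106 and 83.3 FPKM in Arrest 1 d (log2 change 0.56, SE 0.09, limma adjusted p = 0.000673). Psmb3 was at 24.3 to 28.4 FPKM in Naive, the tightest range of these genes, and at 37.4, 37.3, 48.2 and 42.1 FPKM in Arrest 1 d (0.60, SE 0.10, limma adjusted p = 0.000695). Neither gene had an Arrest 1 d library inside the Naive range.

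The catalytic subunits rose too. Psmb5, which carries the chymotrypsin-like site, was at 57.2, 64.1, 87.1, 64.0 and 54.3 FPKM in Naive and at 119, 99.8, 111 and 99.3 FPKM in Arrest 1 d (log2 change 0.72, SE 0.13, limma adjusted p = 0.00121). Psmb6, with the caspase-like site, rose from 49.2 ± 4.29 FPKM (SD, n = 5) to 64.9 ± 6.34 FPKM (SD, n = 4), a log2 change of 0.39 (limma adjusted p = 0.0223). Psmb7, with the trypsin-like site, rose from 17.6 ± 2.98 FPKM (SD, n = 5) to 24.7 ± 2.04 FPKM (SD, n = 4), a log2 change of 0.48 (limma adjusted p = 0.019). Psmb2 and Psmb1 rose by 0.67 and 0.44 (limma adjusted p = 0.00243 and 0.0139). Every Arrest 1 d library was above every Naive library for all 7 genes.

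**Figure D2:**
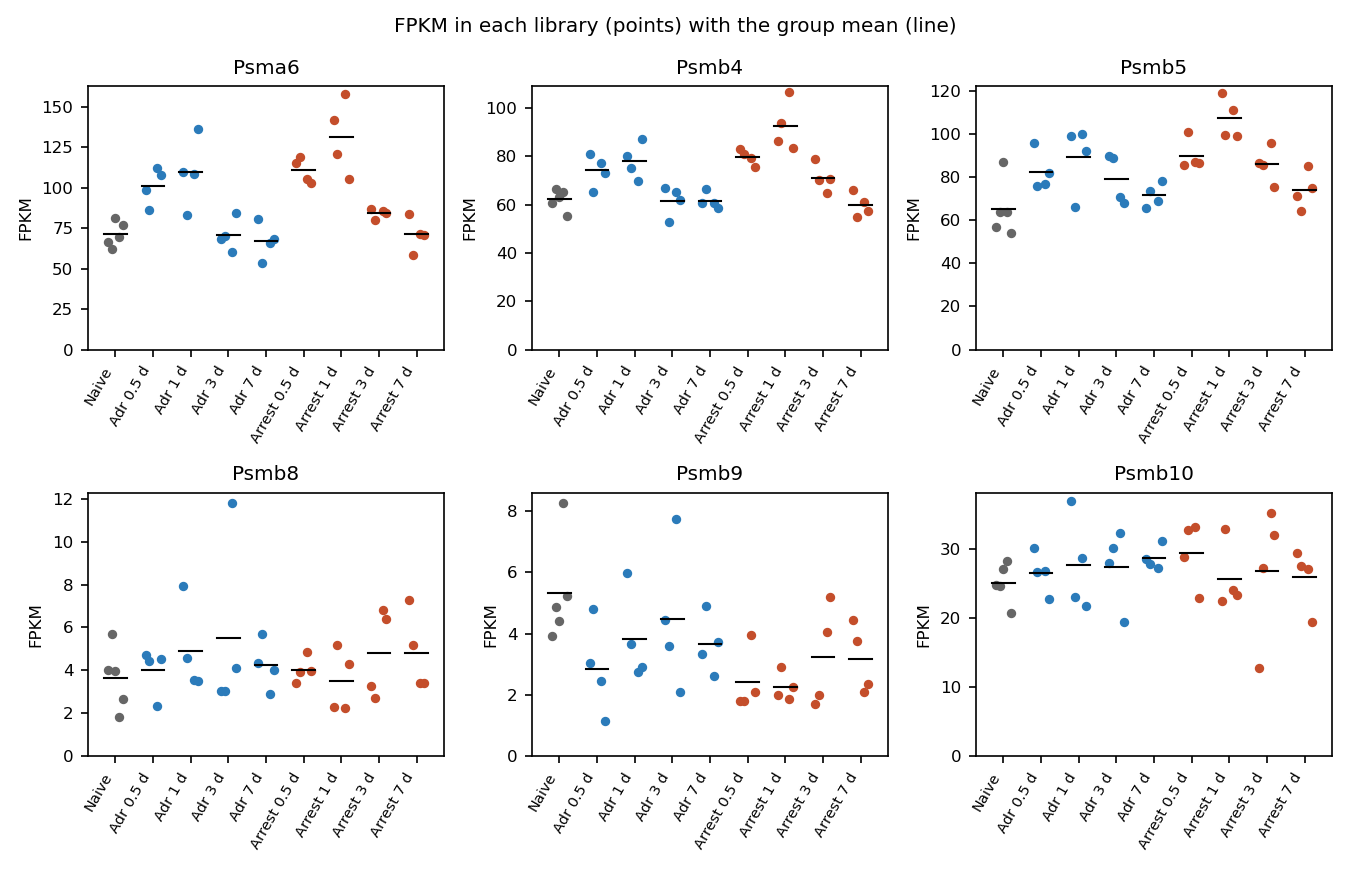
FPKM of 6 members in each of the 37 libraries (points, by group) with the group mean (line), on linear axes that start at 0. Psma6, Psmb4 and Psmb5 are highest at Arrest 1 d, at 131, 92.5 and 107 FPKM on average, while Psmb8 and Psmb10 show no such step and Psmb9 is lower at Arrest 1 d (2.25 FPKM) than in Naive (5.33 FPKM).

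In the cap, Psmc1, an ATPase of the base, rose from 45.8, 44.9, 49.4, 35.3 and 38.0 FPKM in Naive to 52.0, 73.1, 79.2 and 61.1 FPKM in Arrest 1 d (log2 change 0.62, SE 0.15, limma adjusted p = 0.0133). Psmc6, another ATPase, rose by 0.40 (SE 0.11, adjusted p = 0.0213) and Psmd4, a ubiquitin receptor, by 0.62 (SE 0.19, adjusted p = 0.0434). In the lid, Psmd8 rose by 0.50 (SE 0.12, adjusted p = 0.00984), Psmd7, the partner of the deubiquitinase Psmd14, by 0.41 (SE 0.11, adjusted p = 0.0209), and Psmd11 by 0.59 (SE 0.18, adjusted p = 0.0428). These 6 genes had no Arrest 1 d library inside the Naive range. Leaving out 1 library at a time lost the call in 8 of 10 fits for Psmd11 and in 7 for Psmd4. Psmc6 and Psmd7 lost it in 2 fits each, Psmc1 and Psmd8 in 1 each. In 11 other settings Psmd4 and Psmd11 lost it in 5 each. Psmd14 itself was at 14.4 ± 2.31 FPKM (SD, n = 5) in Naive and 18.8 ± 2.68 FPKM (SD, n = 4) in Arrest 1 d (log2 change 0.36, limma adjusted p = 0.115).

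The large scaffold subunits were flat by comparison. Psmd1 was at 9.87 to 14.2 FPKM in Naive and 11.1 to 14.5 FPKM in Arrest 1 d (log2 change 0.01, SE 0.13), and Psmd2 changed by 0.05 (SE 0.10). Psmd3, in the lid, changed by 0.11 (SE 0.11, limma adjusted p = 0.636). The ranges of Psmd1 in both groups overlapped almost fully.

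Among the other regulators, Psme3, the nuclear activator, changed by 0.27 (limma adjusted p = 0.123), and Psmf1, an inhibitor, by 0.34 (adjusted p = 0.176). Psme4, an activator that caps the core without ATP, was at 35.4 ± 3.94 FPKM (SD, n = 5) in Naive and 34.9 ± 4.50 FPKM (SD, n = 4) in Arrest 1 d, a log2 change of -0.02 (adjusted p = 0.976). Psme2b is a near-identical copy of Psme2, so how fragments were split between them is uncertain, and its changes from Naive ran from -0.53 at Adr 0.5 d to -0.11 at Arrest 0.5 d with none past the threshold. Among the assembly genes, Psmg4 changed by 0.43 (adjusted p = 0.23), Psmd9 by 0.22 (adjusted p = 0.306) and Psmg1 by -0.11 (adjusted p = 0.741). No assembly gene passed the threshold in any comparison.

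Of the 5 immunoproteasome genes none passed the threshold upwards in any comparison, and whether they differed from the core was not tested. Their median change was 0.02 at Arrest 1 d, 0.17 at Arrest 0.5 d and 0.23 at Adr 1 d, with 4 of the 5 higher than Naive in each of the last 2 groups. Psmb9 was at 3.91, 4.87, 4.41, 8.26 and 5.22 FPKM in Naive and at 2.0, 2.90, 1.86 and 2.25 FPKM in Arrest 1 d. The highest Naive value, 8.26 FPKM, was in replicate 4, the library with the fewest genes above 0 (13475). All 4 Arrest libraries were below the 5 Naive ones, and the log2 change was -0.93 (SE 0.28, limma adjusted p = 0.0412). The call was lost when any of Arrest 1 d replicates 1 to 4 or of Naive replicates 2, 4 and 5 was left out (adjusted p up to 0.125), and in 4 of 11 other settings (scaled by fragments, no filter, the description number as a covariate and the replicate block). The log2 change was -0.90 (adjusted p = 0.0752) at Arrest 0.5 d and -0.76 (adjusted p = 0.212) at Adr 0.5 d. Mean Psmb9 was below Naive in all 8 other groups, with means of 2.25 to 4.48 FPKM against 5.33 FPKM, comparisons that share the same 5 Naive libraries.

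Psmb8 was at 4.01, 5.70, 3.96, 1.83 and 2.68 FPKM in Naive and at 2.30, 5.20, 2.22 and 4.29 FPKM in Arrest 1 d, with full overlap (log2 change -0.04, SE 0.31). Psmb10, the most abundant of the catalytic immunoproteasome genes, was at 20.6 to 28.2 FPKM in Naive and 22.4 to 32.8 FPKM in Arrest 1 d (0.02, SE 0.20). Psme1 and Psme2, which form the activator ring, changed by 0.20 (SE 0.16) and 0.27 (SE 0.27). The limma adjusted p of these 4 genes was 0.526 or higher, and the interval that 2 SE allow for Psmb8 and Psme2 is wide enough to hold changes of the size seen in the core.

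The immunoproteasome is also made by leukocytes, so markers of such cells are given beside these values. The summed level of 9 monocyte and macrophage markers was 268 to 489 FPKM in Naive and 257 to 406 FPKM in Arrest 1 d, and none of the 9 passed the threshold. The 9 lymphocyte markers, 3 of them tested, summed to at most 3.95 FPKM in Naive and 1.29 FPKM in Arrest 1 d. The 8 neutrophil markers, 1 of them at 0 in every library, summed to 0 to 10.1 FPKM in Naive and 6.52 to 20.6 FPKM in Arrest 1 d, with none past the threshold. Of the 5 endothelial markers, Kdr (log2 change -0.92, limma adjusted p = 0.0107) and Cdh5 (-0.42, adjusted p = 0.0181) were lower at Arrest 1 d, and the list summed to 154 to 164 FPKM in Naive and 116 to 177 FPKM in Arrest 1 d. None of the 8 cardiomyocyte markers passed the threshold, at sums of 13400 to 15900 FPKM in Naive and 15800 to 18600 FPKM in Arrest 1 d. The 5 fibroblast markers summed to 245 to 321 FPKM in Naive and 282 to 377 FPKM in Arrest 1 d, with none past the threshold. The 5 red cell markers were all lower at Arrest 1 d, with a median log2 change of -0.63 and none past the threshold, at sums of 1700 to 3950 FPKM in Naive and 1560 to 1720 FPKM in Arrest 1 d. The part of any of these in the proteasome values was not tested.

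The balance of each immunoproteasome subunit against the subunit it replaces was followed as a ratio of FPKM within a library. For Psmb9 to Psmb6 the ratio was 0.0813, 0.0984, 0.0797, 0.191 and 0.105 in Naive and 0.031, 0.0453, 0.0254 and 0.0389 in Arrest 1 d. The highest Naive ratio, 0.191, was again in replicate 4. The ranges did not overlap, and the difference of the log2 ratios was -1.61 (exact permutation test, two-sided, p = 0.0159, the smallest that 4 against 5 libraries allow, and 0.127 after adjustment over 24 comparisons). The same log2 ratio differed by -1.37 at Arrest 0.5 d and by -0.76 at Arrest 7 d, each with an exact permutation p of 0.0159 and an adjusted value of 0.127, and by -1.09 at Arrest 3 d (exact permutation p = 0.0794). After adrenaline alone it differed by -1.31 at 0.5 d, -0.71 at 1 d, -0.40 at 3 d and -0.62 at 7 d (exact permutation p = 0.0476, 0.0635, 0.365 and 0.0476). All 8 differences are from the same 5 Naive libraries, whose mean log2 ratio was above that of each other group. Psmb8 to Psmb5 differed by -0.78 at Arrest 1 d (exact permutation p = 0.143) and Psmb10 to Psmb7 by -0.48 (exact permutation p = 0.0635). None of the 24 ratio comparisons passed 0.05 after adjustment, and with these group sizes none could have passed alone.

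**Figure D3:**
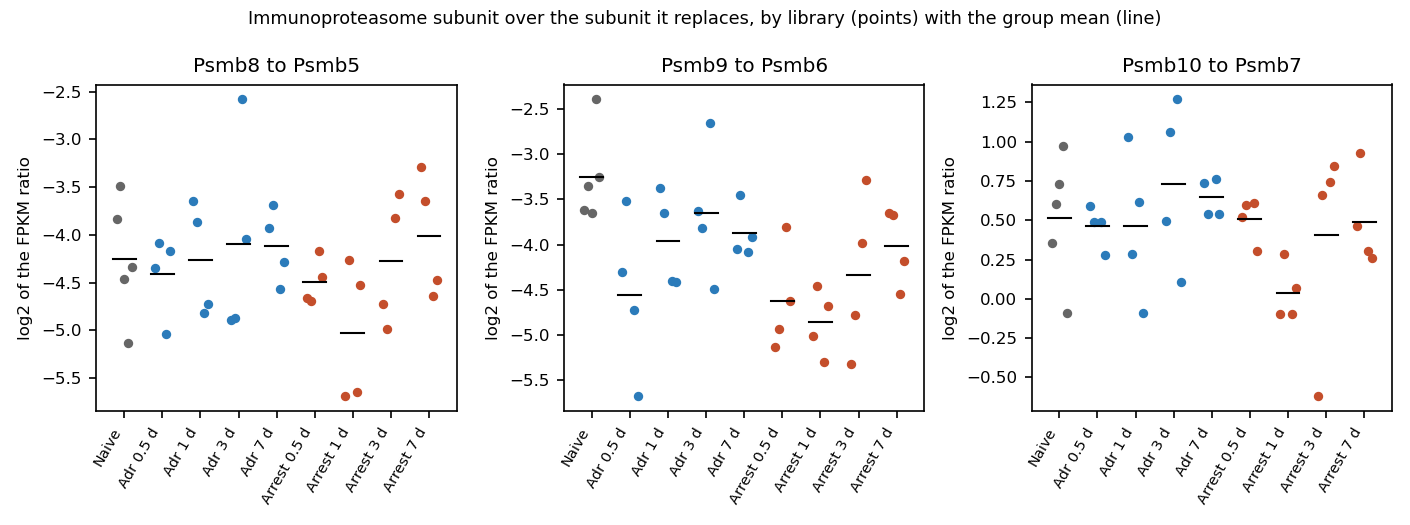
Log2 ratio of the FPKM of Psmb8 to Psmb5, Psmb9 to Psmb6 and Psmb10 to Psmb7 in each library (points, by group) with the group mean (line). Psmb9 to Psmb6 has a mean of -3.25 in Naive and -4.86 in Arrest 1 d with no overlap, and the Psmb8 and Psmb10 ratios overlap with Naive in that group.

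At 0.5 d after arrest 8 members were higher than in Naive and none lower, against a background of 1.75% of all tested genes higher and 1.46% lower. They were Psma1, Psma3, Psma5, Psma6, Psma7, Psmb3, Psmb4 and Psmb5, all of the core and all among the 19 of Arrest 1 d. The log2 changes ran from 0.35 for Psmb4 (limma adjusted p = 0.0338) to 0.76 for Psma5 (adjusted p = 0.0419). The class medians were 0.38 for the constitutive core, 0.21 for the cap, 0.18 for assembly and 0.17 for the immunoproteasome.

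After adrenaline alone, 6 of the 14 constitutive core genes rose at 1 d. Over the family 6 members were higher and none lower, against a background of 0.375% of all tested genes higher and 0.315% lower, and all 6 were core genes. Psmb3 was at 37.2, 43.0, 36.7 and 38.6 FPKM in Adr 1 d, above every Naive library (log2 change 0.53, SE 0.10, limma adjusted p = 0.0161). Psma1, Psma5, Psma6, Psma7 and Psmb2 changed by 0.49 to 0.85 with adjusted p of 0.02 to 0.0497. The count was 0 with the gene length trend removed and 1 in a fit of both groups alone, against 16 and 21 of all tested genes. At Adr 0.5 d no member passed the threshold (background 0.188% of genes in either direction), 15 were higher at an unadjusted p under 0.05 (8.17% of all genes), and the constitutive core had a median change of 0.35. The smallest adjusted p there was 0.091, for Psma6 and Psmb3.

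By 3 and 7 d no member differed from Naive in this test. With limma no member passed at Arrest 3 d (background 0.139%), Arrest 7 d, Adr 3 d or Adr 7 d (background 0.0% each), while 10, 1, 2 and 3 members were higher at an unadjusted p under 0.05, against 7.59%, 3.44%, 7.67% and 3.9% of all genes. The median change of the constitutive core was 0.23 at Arrest 3 d, 0.01 at Arrest 7 d, 0.00 at Adr 3 d and 0.05 at Adr 7 d. At Arrest 3 d all 14 core genes still had a mean log2 level above Naive, as did 51.4% of all tested genes, led by Psmb5 at 86.0 ± 8.33 FPKM (SD, n = 4; log2 change 0.41, adjusted p = 0.157).

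**Figure D4:**
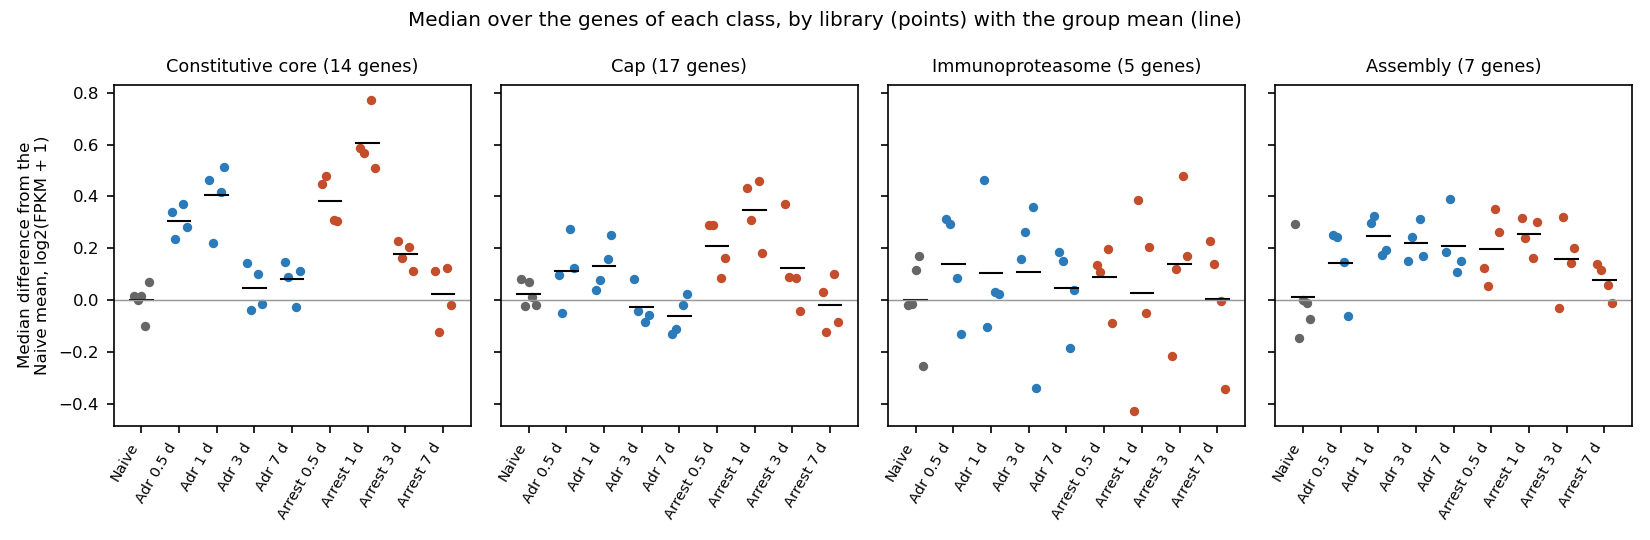
Median difference from the Naive mean over the genes of 4 classes, on the log2(FPKM + 1) scale, in each library (points, by group) with the group mean (line). The 4 Arrest 1 d libraries have a constitutive core median of 0.51 to 0.77 against -0.10 to 0.07 in Naive, while their immunoproteasome medians run from -0.43 to 0.39.

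The return was tested directly between 1 and 7 d, with no Naive mean in the comparison. The Naive libraries were still in the model and shared in its estimate of the spread. Arrest 1 d was higher than Arrest 7 d for 13 members and lower for none, against a background of 1.14% of all tested genes higher and 0.744% lower. These were Psma1, Psma2, Psma3, Psma5, Psma6, Psma7, Psmb1, Psmb2, Psmb3, Psmb4, Psmb5, Psmc2 and Psmc6. In a fit of both groups alone 10 members passed, all higher, among 635 of all tested genes. Psmb4 was at 86.4, 93.8, 106 and 83.3 FPKM at 1 d and 66.2, 54.7, 61 and 57.3 FPKM at 7 d (log2 difference 0.62, SE 0.10, limma adjusted p = 0.00227). All 14 constitutive core genes had every 1 d library above every 7 d library, against a background of 6.57% of all genes. For Adr, 0 members passed between 1 and 7 d with limma (background 0.0423% of genes higher), 16 were higher at an unadjusted p under 0.05 (5.2% of all genes), and the member median was 0.23, with Psma6 next to the threshold (log2 difference 0.69, adjusted p = 0.0572).

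Arrest and Adr hearts of the same day were compared. This difference carries the potassium chloride, the asystole and the chest compressions together. No member passed the threshold at any of the 4 times in limma, against 0, 0, 0 and 1 of all tested genes (0.0% at the first 3 times and 0.00605% at 7 d), and 0, 4, 2 and 0 members were higher in Arrest at an unadjusted p under 0.05, against 2.09%, 3.43%, 2.76% and 1.51% of all genes. At 1 d these were Psmb4 (log2 difference 0.24, SE 0.10), Psmb7 (0.32, SE 0.13), Psmd11 (0.44, SE 0.19) and Psmc1 (0.35, SE 0.16), all higher in Arrest with adjusted p of 0.715 or more. All 14 core genes and all 17 cap genes had a higher mean in Arrest than in Adr at 1 d, with medians of 0.18 and 0.14, as did 49.0% of all genes. The size and sign of the member median depended on the scaling. Over the 47 members it was 0.12 as fitted, 0.03 with quantile normalization and -0.01 when scaled by fragments. The median of all genes was -0.002, -0.005 and -0.09 in that order, each below that of the members. Core and cap medians under the other scalings are not given here. At 1 d the ranges of both groups overlapped for every member, and the share over all genes is not given here. A difference between the arms was not detectable with 4 libraries each, which does not show that they were alike.

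Pathway lists outside the family are given for context. Of 9 tested genes for other subunits, assembly and partners of the proteasome, none passed in any comparison with Naive, and the smallest p at Arrest 1 d was for Adrm1, a ubiquitin receptor of the cap (log2 change 0.38, limma adjusted p = 0.0881), and Txnl1 (0.37, adjusted p = 0.138). Of 16 genes of ubiquitin and its delivery factors none passed, with Ubb, a polyubiquitin gene, at 0.62 (adjusted p = 0.0612) and Uba6, a ubiquitin-activating enzyme, at -0.43 (adjusted p = 0.126).

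Of 10 regulators of proteasome genes 2 passed, both at Arrest 0.5 and 1 d. Stat3, a transcription factor of the response to interleukin-6, was at 12.4 ± 1.95 FPKM (SD, n = 5) in Naive, 24 ± 2.80 FPKM at Arrest 0.5 d and 19.7 ± 2.38 FPKM at Arrest 1 d (SD, n = 4 each), log2 changes of 0.91 and 0.64 (limma adjusted p = 0.00122 and 0.0103). Maff, a small MAF partner of the NRF factors, changed by 1.27 and 1.11 (adjusted p = 0.0253 and 0.0298). Nfe2l1, which encodes NRF1, the factor known to restore proteasome genes when the proteasome is impaired, changed by -0.06 at Arrest 1 d (SE 0.15).

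Of 15 genes of MHC class I presentation and interferon signalling, Ifngr2, a chain of the interferon gamma receptor, fell at Arrest 0.5 d and, by 1.18 on the log2 scale, at Arrest 1 d (limma adjusted p = 0.012 and 0.00207), from 52.5 ± 8.32 FPKM (SD, n = 5) to 25.6 ± 5.13 and 23.3 ± 8.02 FPKM (SD, n = 4 each). Erap1, which trims peptides, fell by 0.53 on the log2 scale at Arrest 1 d (adjusted p = 0.0151). The other 13 did not pass, among them Tap1, the neighbour of Psmb9 (log2 change -0.11, SE 0.29), and the medians of the list were -0.08 and -0.16 at these times.

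The changes moved with gene length. Across the 11549 tested genes with a mean of at least 1 FPKM, the log2 change from Naive fell with gene length at Arrest 1 d. Spearman rho was -0.336, across genes, which are not independent replicates. The members were shorter, with a median of 2808 bases against 3479.5 for all 16530 tested genes. The level of each gene in a library was also taken as the difference from its mean over all 37 libraries. The correlation of this difference with gene length was 0.0824 to 0.256 in Naive libraries and -0.259 to -0.11 in Arrest 1 d. It therefore moved with the group. With the trend of each library with length removed, 12 members passed at Arrest 1 d, 11 of them higher (background 2.21%) and Psmb9 lower (background 2.54%). The 11 were Psma1, Psma3, Psma6, Psma7, Psmb1, Psmb2, Psmb3, Psmb4, Psmb5, Psmd8 and Psmd11. The same removal left 2 members at Arrest 0.5 d (Psma1 and Psma3, background 0.799%), 0 at Adr 1 d (background 0.0484%) and 8 between Arrest 1 and 7 d (background 0.557%), and the core median at Arrest 1 d went from 0.62 to 0.43.

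**Figure D5:**
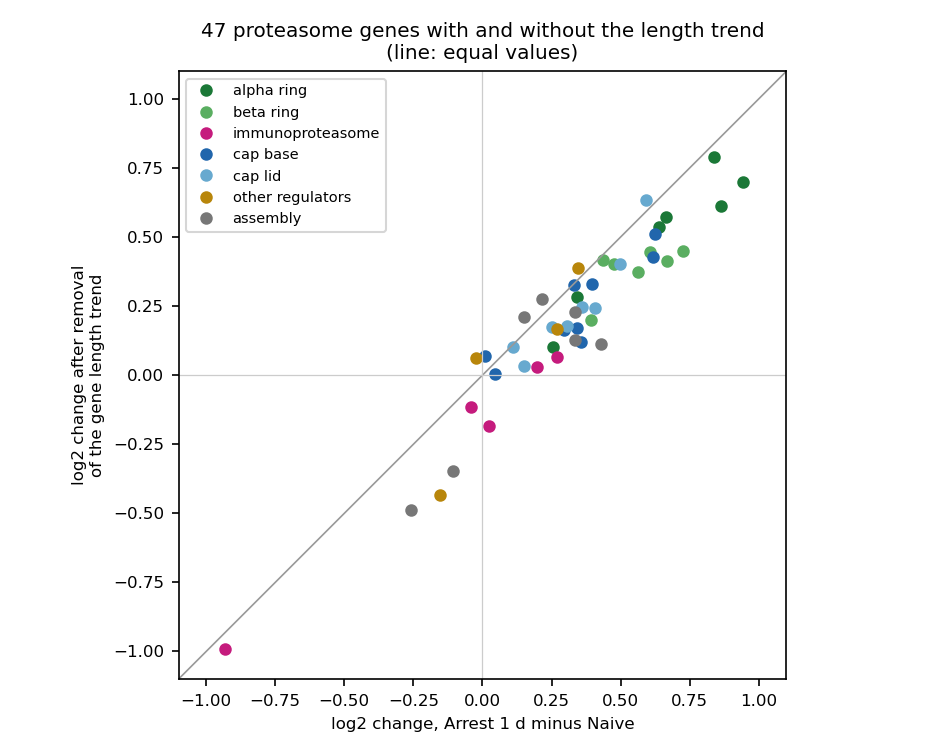
Log2 change of each member at Arrest 1 d from Naive as fitted (horizontal axis) and after the gene length trend of each library was removed (vertical axis), by role, with the line of equal values. Most core genes lie below the line but above 0, with medians of 0.62 and 0.43, and Psmb9 lies at -0.93 and -0.99.

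A second measure moved with the groups. Each library carries a number in its sample description, whose meaning the labels do not give. The numbers of the Naive libraries (116 to 127) did not overlap with those of Arrest 1 d (70 to 95), Adr 1 d (71 to 102), Adr 3 d (63 to 87), Arrest 3 d (90 to 112) or Adr 7 d (92 to 115). With this number as a covariate most calls were lost, over all genes as well as the members. At Arrest 1 d 0 members and 34 of the 16530 genes passed, in place of 19 and 1176, while the member median was 0.33 in place of 0.34. At Adr 1 d 0 members and 0 genes passed (6 and 114 without it), with a median of 0.20 in place of 0.25. At Arrest 0.5 d 3 members passed, Psma1 and Psma6 higher and Psmb9 lower, among 237 genes (531 without it), with a median of 0.24 in place of 0.22. Between Arrest 1 and 7 d 3 members passed, Psma1, Psma6 and Psmb4, all higher, among 72 genes (312 without it), with a median of 0.33 under both. Whatever the number records and the group cannot be told apart between Naive and the 5 groups whose numbers do not overlap with it.

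Leaving out single libraries, those of the compared groups and Adr 3 d replicate 3, moved some counts of members. The counts over all genes are not given for those fits, so these member counts have no background beside them. Of the 19 genes called at Arrest 1 d, 9 (Psma1, Psma3, Psma5, Psma6, Psma7, Psmb2, Psmb3, Psmb4 and Psmb5) kept the call in all 10 fits that left out 1 library. The count was 9 without Arrest 1 d replicate 3, 15 without Naive replicate 4 and 23 without Adr 3 d replicate 3. At Arrest 0.5 d it was 2 without Arrest 0.5 d replicate 1 or 2, 3 to 5 without replicate 3 or 4 or without Naive replicate 1, 2, 4 or 5, with 3 without Naive replicate 4 and 9 without Adr 3 d replicate 3. At Adr 1 d it was 1 without Adr 1 d replicate 1 or 4 or without Naive replicate 4, 2 without Adr 1 d replicate 3, 3 or 4 without Naive replicate 2 or 1, and 9 without Adr 3 d replicate 3. Between Arrest 1 and 7 d it was 4 without Arrest 1 d replicate 3 or Arrest 7 d replicate 2, 5 without Arrest 1 d replicate 1, 7 or 8 without Arrest 7 d replicate 4 or 1, and 16 without Adr 3 d replicate 3.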

How the data were processed

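Bulk RNA of 37 left ventricle libraries was analysed. The authors sequenced paired ends, checked reads with FastQC and aligned them with HISAT2, and deposited FPKM values, 1 column per library; the counting tool, annotation and genome build are not given in the sources used here. Deposited sample columns left unused numbered 0. Low values were whole multiples of 1 fragment (100% within a tolerance of 0.05), which gave the depth of 13.2 to 30.2 M fragments. Groups came from the sample labels.

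FPKM were rescaled by median ratios. The factor was 1.013 in every library, so this step changed nothing between libraries and the deposited values already stood on that scale. The 16530 genes that reached 0.5 FPKM in 4 or more of the libraries entered a fit of log2(FPKM + 1) by limma 3.58.1 in R 4.3.3 (mean-variance trend, 1 model of 9 groups), with Benjamini-Hochberg adjustment over all genes of a comparison and a threshold of 0.05. Changes on this scale understate those of low genes. The script was tested on simulated data. Ratios were compared by exact permutation with scipy 1.17.1. Alternatives changed the scaling, pseudocount, filter, length trend, weights, covariates, block and libraries.

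Named were the immunoproteasome genes and their partners, up to 25 members past the threshold, in each other role the 2 smallest and the largest p at Arrest 1 d, and in outside lists the genes past the threshold or the 2 smallest p. Psmd2, Psmd14, Psme2b, Nfe2l1 and Tap1 were added after their values were seen. The members and lists were chosen with earlier results of these data known.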

Additional observations from a re-analysis of the deposited data

Results flagged for a closer look

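In 72 tests of the 8 immunoproteasome and partner genes in 9 groups, 5 libraries stood far from the others of their group by Dixon's criterion, and chance alone gives about 5% of tests. Psmb8 was at 2.33 FPKM in Adr 0.5 d replicate 3, against 4.45 to 4.7 FPKM in the other 3. It was at 11.8 FPKM in Adr 3 d replicate 3, against 3.04 to 4.13 FPKM, and that is the library with the low mitochondrial share. Psmb9 was at 3.96 FPKM in Arrest 0.5 d replicate 3, against 1.79 to 2.09 FPKM. Psmb10 was at 32.8 FPKM in Arrest 1 d replicate 2, against 22.4 to 24 FPKM. Psmb5 was at 101 FPKM in Arrest 0.5 d replicate 2, against 85.7 to 87 FPKM.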

How the results depend on the processing

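The counts of members past the threshold moved by over 1.5 times as follows, and the cause was not tested. At Arrest 0.5 d (8) the count was 2 with quantile normalization, 5 scaled by fragments, 4 with no filter, 2 with the length trend removed, 3 with the description number as a covariate and 2 in a fit of both groups alone. At Arrest 1 d (19) it was 11 with quantile normalization, 12 with the length trend removed and 0 with the description number. At Adr 0.5 d (0) it was 1 scaled by fragments and 2 with sample weights, while over all genes 31 became 86 and 363. At Adr 1 d (6) it was 3 with no filter, 0 with the length trend removed, 0 with the description number and 1 for both groups alone. Over all genes it was 114 as fitted and 65, 16, 0 and 21 in that order. Between Arrest 1 and 7 d (13) it was 4 with quantile normalization, 8 with the length trend removed, 26 with weights and 3 with the description number. Between Adr 1 and 7 d (0) it was 1 with quantile normalization, 2 scaled by fragments and 5 with weights. It was 1 each with a pseudocount of 0.1, no filter, a mean of at least 1 FPKM or sex as a covariate. Over all genes 7 became 16 with quantile normalization, 27 scaled by fragments and 239 with weights. With the pseudocount, no filter, the mean filter and sex it became 10, 16, 17 and 14. Leaving out 1 library gave 2 to 9 at Arrest 0.5 d, 9 to 23 at Arrest 1 d, 0 to 1 at Adr 0.5 d and 1 to 9 at Adr 1 d. It gave 4 to 16 between Arrest 1 and 7 d and 0 to 3 between Adr 1 and 7 d. Counts over all genes are not given for the fits without 1 library. Over all genes, the count at Arrest 0.5 d (531) was 518 with quantile normalization, 492 scaled by fragments and 323 with no filter. It was 298 with the length trend removed, 237 with the description number and 361 for both groups alone. At Arrest 1 d (1176) it was 1013 with quantile normalization, 785 with the length trend removed and 34 with the description number. Between Arrest 1 and 7 d (312) it was 231, 168 and 72 in that order, and 1815 with weights. The member median moved from 0.34 to 0.23 (quantile) and 0.21 (length) at Arrest 1 d, from 0.20 to 0.08 (length) at Adr 0.5 d, from 0.33 to 0.19 (quantile) between Arrest 1 and 7 d, and from 0.12 to -0.01 (by fragments) for Arrest 1 d against Adr 1 d. No change of a called member reversed under these settings. No ratio difference with an exact permutation p at or under 0.05, before or after the change of setting, reversed either. Other named genes were not checked in this way. The immunoproteasome median at Arrest 1 d went from 0.02 to -0.115 with the length trend removed.

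With a replicate block the count was 5 at Arrest 0.5 d, 15 at Arrest 1 d and 1 between Adr 1 and 7 d (280, 768 and 7 over all genes). Psmb9 was then not called at Arrest 1 d (limma adjusted p = 0.0867). The numbers did not pair the samples: same-numbered deviations correlated at -0.377 to 0.321 (median 0.002, 144 pairs), and 7 of 37 libraries correlated best with their own number.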
